A study of Mus musculus with 15 samples.

Results

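Progression was followed in kidneys whose tubule cells had been exposed to Cre: 4 arrays from mice of 4 months were compared with 4 arrays from mice of 7 months, 8 of the 15 arrays of the series, and every gene of the table was tested. All mice of the series, the controls included, carried a PRCC-TFE3 knock-in at Rosa26 behind a stop cassette that Cre recombinase removes. The Cre+ mice also carried KSP-Cre, in which the promoter of Cdh16, a cadherin of kidney tubule epithelium, drives Cre. The Cre- mice, 4 at 4 months and 3 at 7 months, lacked KSP-Cre. Each array held total RNA from the kidney of 1 mouse, and different mice were sampled at the 2 ages, so no animal was followed over time. Since KSP-Cre was never present without the knock-in, effects of the fusion and of Cre itself cannot be told apart, and the labels do not say which kidneys held tumours.

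TFE3 belongs to the MiT family of transcription factors, which bind E-box elements in promoters of lysosomal and melanosomal genes and are held in the cytoplasm by mTORC1 and the folliculin-Rag GTPase system when nutrients are plentiful. In renal carcinoma with a TFE3 translocation, the fusion protein keeps the DNA-binding part of TFE3 and stays in the nucleus. Damaged tubule epithelium is known to lose transporters and mitochondrial enzymes, to express adhesion and secreted injury proteins, and to draw in macrophages and myofibroblasts.

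The values are log2 RMA levels from a whole-transcript array, and changes are given as 7 minus 4 months on that scale. Pairs of Cre+ arrays correlated at 0.985 to 0.9924 within 4 months, at 0.9884 to 0.9919 within 7 months and at 0.9743 to 0.9853 between the ages, across genes. In a principal component analysis of the 8 Cre+ arrays the first component held 40.1% of the variance and separated the ages, with scores of -28.3 to -17.7 at 4 months and of 16.7 to 26.8 at 7 months. The second component, with 24.2%, separated arrays with high Y-linked values from arrays with low ones. The labels do not give sex. At both ages replicates 1 and 2 had Y-linked means of 5.75 to 6.46 and replicates 3 and 4 of 2.54 to 2.83, so that each age held 2 arrays of each kind. The labelled tissue was borne out by its markers at both ages, with mean levels of 22 proximal tubule markers between 8.85 and 10.50 and of 11 limb markers between 8.04 and 8.70. The table has no detection calls. A gene near the Y-linked level of the low arrays may not be above background, and a fold from such a level may be a lower bound.

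Between 4 and 7 months, genes of tubule injury, fibrinogen, macrophages, chemokines and matrix rose in Cre+ kidneys, and genes of proximal tubule transport, intercalated cells, mitochondrial fuel use and amino acid breakdown fell. Of 22180 genes tested, 914 rose (4.12%) and 1488 fell (6.71%) at an adjusted p under 0.05, and 172 of these rose (0.775%) and 127 fell (0.573%) at least 2-fold. In Cre- kidneys the same interval gave 1 gene (0.00451%), the predicted gene Gm7609, which was noticed for being the only call and stood 0.98 higher in Cre- kidneys (adjusted p = 0.026) and 0.68 higher in Cre+ kidneys (adjusted p = 0.0019). At an unadjusted p under 0.05 the Cre- comparison held 600 genes (2.71% of those tested), and a plain linear model called 0. Values at the 2 ages did not overlap for 2085 of the 2402 genes called in Cre+ kidneys, where 16.8% of all genes did not overlap (5.79% higher and 11% lower at 7 months). A call on the same arrays favours a lack of overlap, so the 2 shares are not independent. The rule for naming the largest changes also required it. The median change of all genes was -0.09 in Cre+ and -0.01 in Cre- kidneys, and the median of the 914 rising genes was 0.66 in Cre+ and -0.01 in Cre- kidneys. The 914 genes were chosen for their rise on these same Cre+ arrays. A larger Cre+ median therefore follows in part from the choice. As deposited, 38.1% of the calls were rises, whereas quantile normalization gave 1325 rises and 1107 falls (54.5% rises) and centring each array on its median gave 1164 and 1360 (46.1%). Of the genes called as deposited, 896 rises and 1013 falls were also called after quantile normalization. Without the first 4-month Cre+ replicate 604 genes rose, and without the fourth 4-month or the second 7-month Cre+ replicate 959 or 956 fell.

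**Figure D1:**
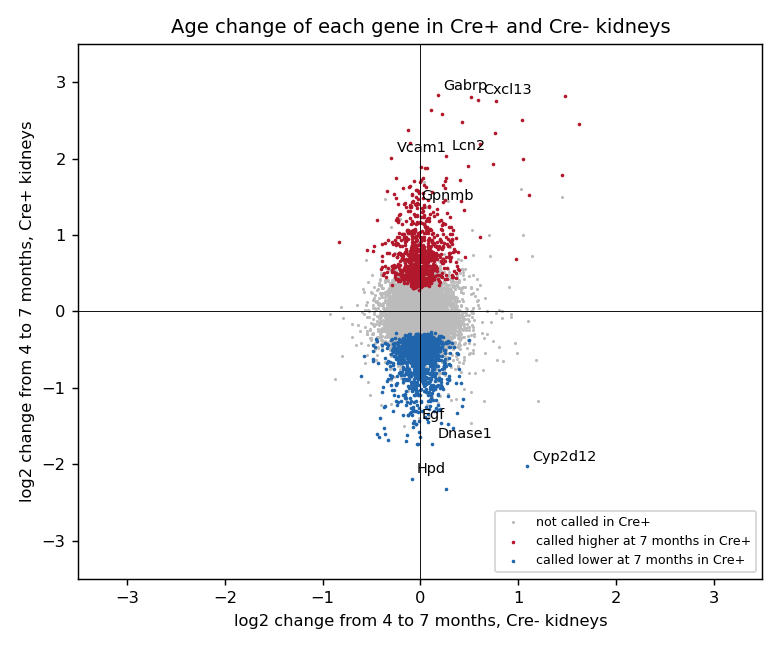
Log2 change from 4 to 7 months of each tested gene in Cre- kidneys (x axis) and in Cre+ kidneys (y axis), with the 914 genes called higher in red, the 1488 called lower in blue and the others in grey. The coloured genes spread up and down the y axis to 2.83 and -2.32, and most stay near 0 on the x axis. They were chosen by their change on the y axis, which favours the wider spread there.

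The largest rise that the naming rule admits was that of Gabrp, a subunit of the GABA-A receptor. It stood at 4.29, 4.68, 4.68 and 4.42 in the 4-month kidneys and at 7.44, 7.29, 7.67 and 6.97 in the 7-month kidneys, a 7.11-fold rise (log2 change 2.83, SE 0.19, adjusted p = 6.7e-07). The ages were far apart, while the Cre- means were 4.17 and 4.35. Adgrg2, an adhesion G protein-coupled receptor, rose from 3.64, 4.37, 3.98 and 3.86 to 6.76, 6.54, 6.43 and 6.67 (2.64, SE 0.18, adjusted p = 7.4e-07). Cxcl13, the chemokine that attracts B cells, rose from 4.92, 5.22, 5.33 and 5.40 to 7.04, 7.93, 7.98 and 8.98 (2.77, SE 0.32, adjusted p = 5.6e-05). Its Cre- means, 5.63 and 6.22, were above the 4-month Cre+ values, so that the 7-month kidneys alone of the Cre+ groups stood above the controls. Hpse, the heparanase that cleaves heparan sulfate, rose from 4.34, 5.02, 4.82 and 4.93 to 6.89, 6.99, 7.46 and 7.29 (2.38, SE 0.21, adjusted p = 8.4e-06), while a dimmer entry of the same gene was at -0.11. Serpina3n, a secreted protease inhibitor of the acute phase, rose 4.57-fold (2.19, SE 0.23, adjusted p = 2.3e-05) and Serpina10, the inhibitor of coagulation factor X, 3.37-fold (1.75, SE 0.27, adjusted p = 0.00053). Eif2c5, an entry whose symbol belongs to an older naming of Argonaute genes, rose 3.68-fold (1.88, SE 0.23, adjusted p = 8.9e-05).

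**Figure D2:**
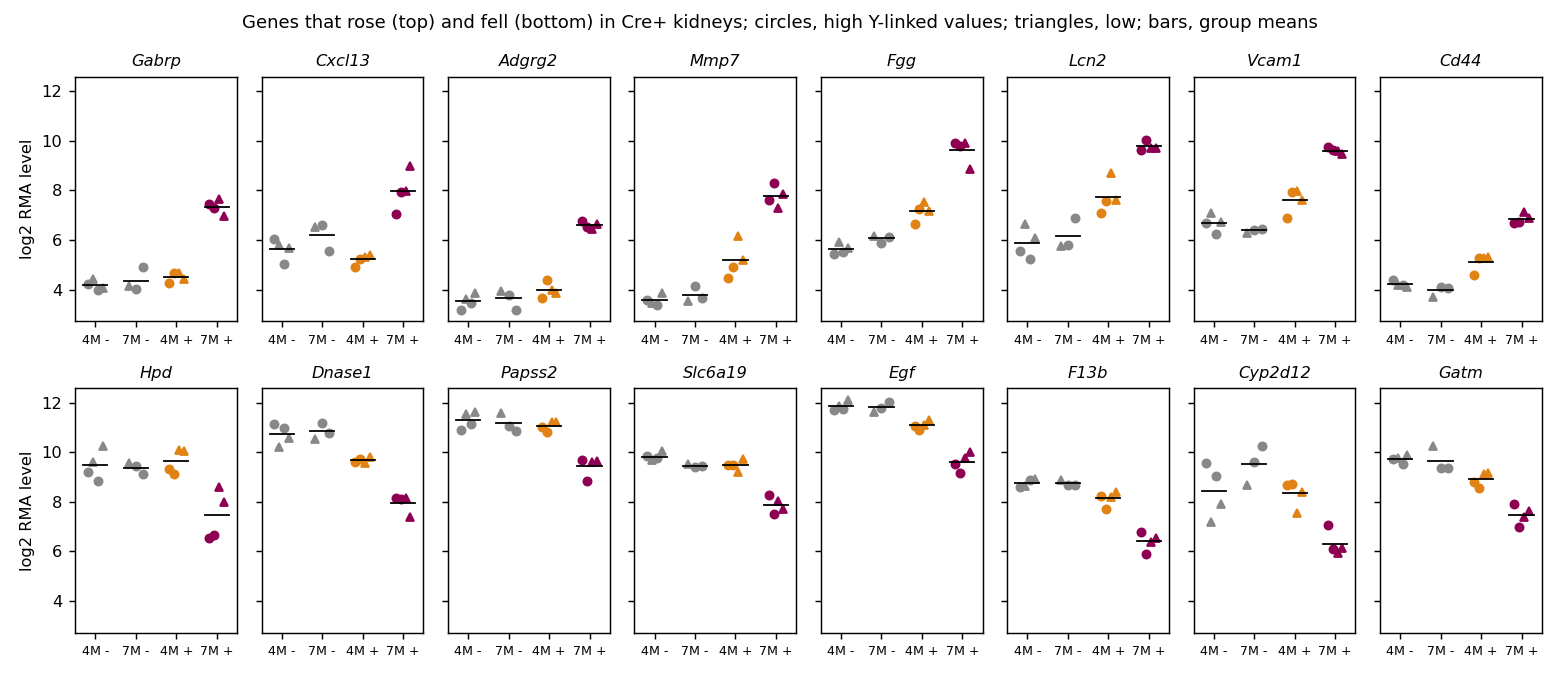
Log2 RMA level of 8 genes that rose (top) and 8 that fell (bottom) in each of the 15 kidneys, grouped by age and Cre. Circles are arrays of high and triangles of low Y-linked values, and bars are group means. In each panel the 7-month Cre+ kidneys stand apart from the 4-month Cre+ kidneys, and the Cre- kidneys of the 2 ages lie closer together. The genes shown were called on these same Cre+ arrays, which favours the separation of the Cre+ groups.

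Transcripts that stood highest over the Cre- controls at 4 months already did not all climb further. At 4 months Cre+ and Cre- kidneys differed in 784 genes (3.53%), 606 of them higher in Cre+ (2.73%), and the 10 named genes with the largest excess, a clone-named transcript left aside, were taken after their values were seen. Both comparisons use the same 4-month Cre+ arrays, so that choosing genes high on these arrays favours a lower change from 4 to 7 months. Gpnmb, a glycoprotein of lysosomes and melanosomes and a marker of TFE3 carcinoma, rose from 10.21, 11.07, 10.94 and 10.82 to 12.01, 12.15, 12.37 and 12.10, 2.63-fold higher (log2 change 1.39, SE 0.17, adjusted p = 7.5e-05), while Cre- means were 4.46 and 4.41. Cd68, a lysosomal glycoprotein much used to mark macrophages, rose 2.27-fold (1.18, SE 0.21, adjusted p = 0.0017). Diras2, a small GTPase, rose by 0.86 (SE 0.22, adjusted p = 0.02) and Tyrp1, an enzyme of melanin synthesis, by 1.01 (SE 0.26, adjusted p = 0.021). Over the whole list of TFE3 renal carcinoma markers, which holds Gpnmb and Tyrp1, 2 of 15 rose and 1 fell, with a median of -0.02 and 8 below 0. Of 12 melanosome and pigment genes 3 rose, the third being Mlph, a melanosome transport protein (0.40, adjusted p = 0.022), and 1 fell, with a median of 0.04. The fall in both lists was that of Mlana, a melanosome protein (-0.39, adjusted p = 0.038), a call that was lost with the replicate block (adjusted p = 0.051), after quantile normalization (adjusted p = 0.14) and without each of 7 Cre+ arrays (adjusted p at most 0.11). Mlph had adjusted p = 0.067, 0.055 and 0.053 without the second 4-month, the first 7-month and the fourth 7-month Cre+ replicate. After quantile normalization 5 of the carcinoma markers rose and 0 fell. The other 6 of the 10 did not pass the test, and their intervals make no allowance for the choice of genes by 4-month excess. Reln, a secreted matrix glycoprotein, was at 9.82, 9.73, 9.74 and 9.92 and at 9.86, 10.05, 9.68 and 9.84, a change of 0.05 with a 95% interval of -0.20 to 0.30. Tgfb2, a growth factor, was at -0.16 (interval -0.62 to 0.30), and Moxd1, a relative of copper monooxygenases, at -0.38 (interval -0.82 to 0.05). P2rx7, an ATP-gated channel, was at 0.22 (interval -0.07 to 0.51), Nr4a1, a nuclear receptor, at 0.31 (interval -0.04 to 0.66), and Ngfr, a neurotrophin receptor, at 0.20 (interval -0.05 to 0.45). Ret, a receptor tyrosine kinase, was at -0.01 (interval -0.37 to 0.36) with Cre+ values of 6.73 to 7.21 at 7 months against Cre- means of 4.46 and 4.40. Without the first or the second 4-month or the third 7-month Cre+ replicate Diras2 had adjusted p = 0.052, 0.055 and 0.057, and without the first 4-month or the third 7-month replicate Tyrp1 had 0.062 and 0.063.

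The partner genes of the fusion and the driver of Cre were followed for the same interval. Tfe3 was at 6.55, 6.31, 6.68 and 6.57 at 4 months and at 6.75, 6.78, 6.88 and 6.77 at 7 months, a change of 0.26 (SE 0.09, adjusted p = 0.083) that passed after median centring (adjusted p = 0.05) and in the plain model (adjusted p = 0.045). The 7-month values lay above all 4-month values but did not pass as deposited. Prcc was at -0.27 (SE 0.12, adjusted p = 0.16) and Cdh16, whose promoter drives Cre, at -0.14 (SE 0.12, adjusted p = 0.50). Probe positions within these genes were not analysed here, so no value is a measure of the fusion transcript. None of the 8 MiT factors and partner genes passed in limma, with 1 higher and 1 lower at an unadjusted p under 0.05 and 1 called by the plain model.

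Lysosomal genes split by enzyme. Of 31 hydrolases and membrane proteins of the lysosome 4 rose and 3 fell, with a median of 0.09 against -0.09 for all genes. Gla, the galactosidase that is lacking in Fabry disease, was at 6.43, 6.81, 6.59 and 6.61 and then at 7.37, 7.00, 7.52 and 7.37 (0.71, SE 0.12, adjusted p = 0.0012). Hexa, a subunit of hexosaminidase, rose by 0.50 (SE 0.13, adjusted p = 0.021), and the fourth, beside Cd68, was Scarb2. Lipa, the lysosomal acid lipase, fell from 10.96, 10.83, 10.87 and 11.10 to 10.40, 9.98, 9.93 and 10.13 (-0.83, SE 0.11, adjusted p = 0.00014). Acp5, an acid phosphatase, fell by 0.58 (SE 0.10, adjusted p = 0.0017), and Neu1, a sialidase, by 0.47 (SE 0.15, adjusted p = 0.049, or 0.08 after quantile normalization), a call that was also lost without each of 11 single arrays (adjusted p at most 0.14). The cathepsins moved upward, with 6 of 14 rising and a median of 0.25. Ctss, the cathepsin of antigen-presenting cells, rose from 7.42, 8.12, 8.01 and 7.22 to 9.75, 9.85, 9.32 and 9.40 (1.89, SE 0.21, adjusted p = 5.5e-05), and Ctsc, which activates serine proteases of leukocytes, rose by 0.66 (SE 0.13, adjusted p = 0.004). Ctsk, a marker of TFE3 carcinoma, was at 0.10 (interval -0.22 to 0.43). Macrophage markers, which include lysosomal proteins, had a median of 0.95 in the same kidneys, and their part in the lysosomal rises was not tested. Without the first 4-month or the third or the fourth 7-month Cre+ replicate Hexa had adjusted p = 0.06, 0.062 and 0.053.

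None of 12 folliculin and Rag GTPase genes passed in limma, with 1 at an unadjusted p under 0.05, 0 in the plain model and 1 after quantile normalization, Rragd, a Rag GTPase (0.30, interval 0.06 to 0.54, adjusted p = 0.11 as deposited and 0.011 after quantile normalization). None of 26 autophagy genes passed, with 1 higher and 1 lower at an unadjusted p under 0.05, 0 in the plain model and 2 after quantile normalization. Of 20 subunits of the V-ATPase, the proton pump of lysosomes and intercalated cells, 1 rose and 4 fell. The rise was that of Atp6v0a1, a membrane subunit (0.50, SE 0.10, adjusted p = 0.0054). The falls included Atp6v1c2 (-0.88, SE 0.15, adjusted p = 0.0014), Atp6v1g3 (-0.78, SE 0.21, adjusted p = 0.028) and Atp6v1b1 (-0.73, SE 0.18, adjusted p = 0.016), of which the latter 2 are also in the intercalated cell list. The list's median was -0.12 as deposited and 0.00 after quantile normalization. Without the fourth 4-month, the second 7-month or the third 7-month Cre+ replicate 1, 1 or 2 subunits fell, Atp6v1b1 had adjusted p = 0.052 and 0.051 without the first and the second of these, and Atp6v1g3 lost its call without each of 6 Cre+ arrays (adjusted p at most 0.08).

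The RefSeq promoter table (GRCm38.p6) held a promoter for 16990 of the tested genes, from 250 bases before to 50 after the annotated start. The E-box CACGTG, searched on both strands, was in 8.47% of promoters of genes that rose, 9.36% of those that fell and 9.19% of all. Its longer form TCACGTGA, which contains the E-box, was in 1.34%, 1.20% and 1.44%. For both motifs the share among rising genes was below that among all genes. The Gla promoter holds 2 copies of the longer form on the minus strand of the X chromosome, shown in capitals with up to 30 bases on each side, at chrX:134601196-134601255 and chrX:134601163-134601230, 228 and 195 bases before the start.
Gla, far copy: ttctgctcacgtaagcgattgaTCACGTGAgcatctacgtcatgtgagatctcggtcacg
Gla, near copy: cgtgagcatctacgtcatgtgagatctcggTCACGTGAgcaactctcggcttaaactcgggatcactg

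Tubule injury genes rose together, 17 of 23 measured, with a median of 0.80. Lcn2, a secreted iron-carrier protein used as an injury marker, was at 7.10, 7.58, 8.70 and 7.62 at 4 months and at 9.65, 10.05, 9.73 and 9.71 at 7 months, 4.1-fold higher (log2 change 2.04, SE 0.33, adjusted p = 0.00076). The 7-month values lay close together, whereas the third 4-month kidney stood above the others of its age. Vcam1, an adhesion molecule of injured proximal tubule cells and vessels, rose from 6.88, 7.95, 7.97 and 7.62 to 9.76, 9.62, 9.60 and 9.46 (2.01, SE 0.20, adjusted p = 2.2e-05). Cd44, the hyaluronan receptor, rose from 4.59, 5.28, 5.26 and 5.30 to 6.67, 6.73, 7.13 and 6.90 (1.75, SE 0.16, adjusted p = 8.7e-06). For all 3 genes the ages did not overlap. Havcr1, which encodes the injury molecule KIM-1, was at 5.14, 6.38, 5.70 and 5.43 and then at 8.17, 8.25, 6.46 and 6.34 (1.64, SE 0.37, adjusted p = 0.0098). Here the ages overlapped, and the first and the second 7-month kidneys, those of high Y-linked values, carried most of the rise.

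The 3 fibrinogen chains rose, with 4 of 17 genes of coagulation rising and 1 falling. Fgg was at 6.63, 7.25, 7.55 and 7.18 and then at 9.93, 9.80, 9.92 and 8.86 (2.48, SE 0.22, adjusted p = 8.7e-06). Fgb was at 5.07, 6.10, 6.36 and 6.23 and then at 8.17, 7.81, 9.16 and 7.41 (2.20, SE 0.36, adjusted p = 0.00086). Fga was at 4.74, 4.96, 5.17 and 5.10 and then at 6.31, 6.38, 6.90 and 5.48 (1.27, SE 0.21, adjusted p = 0.00079). In each chain the fourth kidney was the lowest of the 7-month group and still above every 4-month value. The fourth gene to rise was F3, tissue factor. F5, coagulation factor V, fell by 1.25 (SE 0.29, adjusted p = 0.01). F13b, the carrier subunit of factor XIII and not a member of that list, fell from 8.25, 7.73, 8.21 and 8.40 to 6.80, 5.89, 6.39 and 6.53 (-1.74, SE 0.17, adjusted p = 1.9e-05).

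Immediate early transcription factors were among the rising genes. Atf3, a stress-induced factor of the bZIP family, rose from 5.86, 5.93, 6.10 and 5.85 to 6.89, 7.31, 6.82 and 7.17 (1.12, SE 0.15, adjusted p = 0.00016). Jun, a component of AP-1, rose by 0.93 (SE 0.16, adjusted p = 0.0012) and Klf6, a zinc finger factor induced by injury, by 0.87 (SE 0.11, adjusted p = 9.4e-05). The fourth was Ier2, and Dusp1, a phosphatase of MAP kinases, fell by 0.75 (SE 0.18, adjusted p = 0.014), so that 4 rose and 1 fell of 19 measured, with a median of 0.21.

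The AP-1 motif TGANTCA, searched on both strands, was in 11.6% of promoters of the genes that rose, 7.82% of those that fell and 8.42% of all, and in 7.81% of the 32851 promoters of the table. Named genes that fell also held the motif, among them Hpd, Clec2h, Mmp13, Mmp10, Neu1 and Ndufa9. Windows around it are shown for 3 genes that rose, Mmp7, Fgb and Cldn4, with the motif in capitals. They lie at chr9:7691997-7692063 on the plus strand, 63 bases before the Mmp7 start, at chr3:83050000-83050066 on the minus strand, 173 before the Fgb start, and at chr5:134947056-134947122 on the minus strand, 158 before the Cldn4 start.
Mmp7: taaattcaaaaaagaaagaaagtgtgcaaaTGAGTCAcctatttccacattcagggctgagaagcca
Fgb: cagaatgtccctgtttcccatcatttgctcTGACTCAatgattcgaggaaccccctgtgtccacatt
Cldn4: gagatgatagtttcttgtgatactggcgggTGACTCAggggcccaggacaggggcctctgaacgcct
A match describes the letters of the window and is no measurement of binding. The planned search held only the E-box and its longer form. The AP-1 motif and the NF-kB, interferon, HNF1 and HNF4 motifs given below were added to it, and no difference between shares was tested.

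Macrophage and monocyte markers showed the highest share of rising members among the lists examined, 21 of 24, with a median of 0.95. Their mean level was 5.57 to 5.94 at 4 months and 6.69 to 6.85 at 7 months, so that the ages did not overlap. Ms4a7, a membrane protein of macrophages, rose from 4.74, 5.33, 5.99 and 5.37 to 7.12, 6.84, 7.16 and 6.93 (1.66, SE 0.23, adjusted p = 0.00022). Cd14, the lipopolysaccharide co-receptor, rose from 5.32, 5.68, 6.0 and 6.09 to 6.93, 7.36, 7.19 and 7.19 (1.40, SE 0.17, adjusted p = 6.7e-05). Clec7a, the beta-glucan receptor dectin-1, rose by 1.40 (SE 0.27, adjusted p = 0.0031), and Adgre1, a surface receptor of mature macrophages, was among the rising members. In bulk RNA a larger number of cells of a type and more RNA per cell cannot be told apart, which holds for every cell type marker given here.

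Some lymphocyte markers rose from low levels. Of 16 T and NK cell markers 4 rose, with a median of 0.18 and 5 below 0. The 4 were Cd3g, Cd3e, Cd4 and Cd2, and none of the CD8, granzyme, perforin and NK receptor genes of the list passed. Cd3g was at 4.48, 5.16, 5.21 and 5.16 and then at 6.0, 6.16, 6.37 and 6.72 (1.31, SE 0.17, adjusted p = 0.00014). Cd3e (0.80, SE 0.18, adjusted p = 0.0074) is also a chain of the T cell receptor complex, and Cd4, the co-receptor of helper T cells, rose by 0.75 (SE 0.14, adjusted p = 0.0027). Of 10 B and plasma cell markers 4 rose, with a median of 0.46. Ms4a1, which encodes CD20, was at 3.46, 3.96, 3.94 and 3.94 and then at 4.25, 5.33, 5.05 and 5.53 (1.22, SE 0.22, adjusted p = 0.0021), and Cd79a, a chain of the B cell receptor, rose by 1.16 (SE 0.20, adjusted p = 0.0012). Immunoglobulin segments, which the naming rule leaves out and which share sequence, were among the largest changes. Igkj1, a joining segment of the kappa chain chosen after its values were seen, went from a mean of 5.91 (SD 0.75, n = 4) to 8.36 (SD 1.0, n = 4) in Cre+ kidneys without overlap (log2 change 2.45, SE 0.57, limma adjusted p = 0.011), and its Cre- means were 5.18 and 6.80. Without the fourth 4-month or the fourth 7-month Cre+ replicate 2 B cell markers rose, and without the first 7-month replicate 7 rose.

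Chemokines, complement and antigen presentation moved in the same direction. Of 31 chemokines and receptors 13 rose, with a median of 0.45. Ccl3, a chemokine of monocytes, rose by 1.05 (SE 0.14, adjusted p = 0.00018) and Ccl9, another, by 1.01 (SE 0.16, adjusted p = 0.00073), beside Cxcl13. Complement genes had 5 of 16 rising and 1 falling. C4b rose from 5.29, 5.46, 5.62 and 5.85 to 7.03, 7.29, 7.47 and 6.63 (1.55, SE 0.26, adjusted p = 0.001), C3ar1, the receptor of C3a, by 1.19 (SE 0.15, adjusted p = 8.5e-05) and C1qb by 1.06 (SE 0.19, adjusted p = 0.0016), whereas Cfb, factor B of the alternative pathway, fell by 0.63 (SE 0.13, adjusted p = 0.005). Among 13 class II and dendritic cell genes 5 rose, H2-Ab1 from 10.15, 10.95, 10.79 and 10.67 to 11.36, 11.33, 11.57 and 11.32 (0.76, SE 0.15, adjusted p = 0.0031). Of 15 interferon response genes 5 rose, with a median of 0.56, among them Irf7, a factor of interferon induction (1.13, SE 0.18, adjusted p = 0.00056). None of 11 neutrophil markers passed in limma, with 1 higher and 4 lower at an unadjusted p under 0.05 and 1 lower in the plain model. Without the second 7-month Cre+ replicate 8 chemokine genes rose, and without the first 7-month replicate 3 interferon genes rose.

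In promoters of rising genes the NF-kB motif, searched on both strands, was found in 1.63% (11 of 673), against 0.43% of those of falling genes and 0.5% of all. The interferon-stimulated element, also searched on both strands, was in 6.09%, 3.44% and 3.87%. Neither set of shares was tested. Beside Ctss, which rose, the element was in promoters of the named genes Slc22a26, Slc26a4, Slco1a6, Mmp13 and Ndufa9, which fell. Windows with the NF-kB motif in capitals are shown for Csf1, the growth factor of macrophages (0.72, SE 0.15, adjusted p = 0.0046), Cxcl1, a chemokine (0.51, SE 0.13, adjusted p = 0.016), and Il16, a T cell attractant (1.39, SE 0.19, adjusted p = 0.00023), 3 genes chosen for the motif after their values were seen. The window of Ctss shows the interferon element. They lie at chr3:107760584-107760653 (Csf1, minus strand), chr5:90891144-90891213 (Cxcl1, plus strand), chr7:83655505-83655574 (Il16, minus strand) and chr3:95526735-95526785 (Ctss, plus strand).
Csf1: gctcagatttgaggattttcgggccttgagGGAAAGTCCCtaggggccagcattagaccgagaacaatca
Cxcl1: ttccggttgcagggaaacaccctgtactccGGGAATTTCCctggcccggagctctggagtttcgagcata
Il16: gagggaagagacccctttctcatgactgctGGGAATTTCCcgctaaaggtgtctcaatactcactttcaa
Ctss: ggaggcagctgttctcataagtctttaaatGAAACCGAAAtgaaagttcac

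Matrix genes rose in the same kidneys. Of 19 collagens 7 rose, with a median of 0.30. Col12a1, a fibril-associated collagen, rose from 5.71, 6.13, 6.55 and 6.50 to 8.30, 7.98, 8.30 and 7.85 (1.88, SE 0.18, adjusted p = 1.5e-05), and the fibrillar collagen Col1a1 by 1.14 (SE 0.20, adjusted p = 0.0012). Col3a1, which forms fibrils with it, rose by 1.06 (SE 0.20, adjusted p = 0.0031). Of 23 myofibroblast and matrix glycoprotein genes 5 rose, among them Postn, periostin (1.59, SE 0.29, adjusted p = 0.0018), and Thbs2, a thrombospondin (1.43, SE 0.16, adjusted p = 4.3e-05). That count was 2 without the first 4-month or the third 7-month Cre+ replicate, 3 without the first 7-month, and 8 without the third 4-month replicate or after quantile normalization. Metalloproteinases and their inhibitors moved in both directions, with 6 of 18 rising and 3 falling. Mmp7, matrilysin, was at 4.45, 4.92, 6.16 and 5.21 and then at 7.62, 8.31, 7.30 and 7.88 (2.59, SE 0.28, adjusted p = 3.7e-05), while a dimmer entry of the same gene was at -0.03. Mmp14, a membrane-bound collagenase, rose by 1.28 (SE 0.22, adjusted p = 0.0012) and Mmp12, the elastase of macrophages, by 1.18 (SE 0.18, adjusted p = 0.00044), whereas the collagenase Mmp13 was at -0.69 (adjusted p = 0.031) and the stromelysin Mmp10 at -0.40 (adjusted p = 0.033). After quantile normalization these had adjusted p = 0.071 and 0.12, and without single Cre+ arrays up to 0.095 and 0.10, and with the replicate block Mmp13 had 0.050. Of the inhibitors, Timp2 rose by 0.94 (adjusted p = 0.00028) and Timp1 by 0.76 (adjusted p = 0.0067), and Timp3 fell by 0.52 (SE 0.09, adjusted p = 0.00093). The number falling in the list was 1 without the second or the third 4-month or the fourth 7-month Cre+ replicate or after quantile normalization.

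Signalling genes of the TGF-beta family were mostly on the rising side, with 6 of 21 rising and 1 falling. Ltbp2, a latent TGF-beta binding protein, rose from 4.74, 5.05, 5.12 and 4.82 to 7.22, 6.59, 6.48 and 6.26 (1.71, SE 0.16, adjusted p = 1.5e-05). Grem1, a secreted antagonist of BMPs, rose from 3.77, 3.33, 4.37 and 4.33 to 5.66, 5.43, 5.16 and 4.95 (1.35, SE 0.21, adjusted p = 0.00054). Skil, an inhibitor of SMAD signalling, rose by 0.67 (SE 0.17, adjusted p = 0.016), and the other rising members were Tgfb1, Tgfbr1 and Tgfbr2. Bmp7, a growth factor that maintains kidney epithelium, fell from 8.62, 8.16, 8.50 and 8.53 to 7.86, 7.89, 7.86 and 7.85 (-0.59, SE 0.10, adjusted p = 0.0012). The 7-month values of Bmp7 lay close together, and the ages did not overlap.

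Genes of epithelial junctions and urothelium rose in the same kidneys. Cldn4, a claudin of the collecting duct and of regenerating tubules, rose from 7.19, 7.29, 7.76 and 7.57 to 8.47, 9.24, 8.84 and 8.91 (1.42, SE 0.19, adjusted p = 0.00017), and Cldn1, a claudin of parietal epithelium, by 0.94 (SE 0.15, adjusted p = 0.00062). With Cdh3, P-cadherin (0.63, SE 0.15, adjusted p = 0.014), 3 of 16 junction genes rose. Of 8 urothelium markers 4 rose, with a median of 0.75, among them the uroplakins Upk1b, from 5.91, 5.82, 6.11 and 5.19 to 6.80, 7.36, 7.44 and 7.77 (1.59, SE 0.25, adjusted p = 0.00053), Upk1a (0.86, SE 0.17, adjusted p = 0.0029) and Upk2 (0.79, SE 0.11, adjusted p = 0.00028). Whether the amount of renal pelvis in the sample differed between the ages was not tested.

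Of 32 cell cycle and mitosis genes 3 rose, Top2a, a topoisomerase of dividing cells, Ccnd1 and Ccnd2, and 31 of 32 stood above 0, with a median of 0.22. Mki67, the marker of cycling cells, was at 6.06, 6.24, 6.41 and 6.34 and then at 7.12, 6.83, 6.48 and 6.86. The ages did not overlap, but the change of 0.56 (SE 0.17, adjusted p = 0.051) did not pass as deposited and passed after quantile normalization (adjusted p = 0.047) and median centring (adjusted p = 0.038). Ccnd1, cyclin D1, rose from 8.95, 9.30, 8.93 and 9.15 to 9.63, 9.58, 10.06 and 9.40 (0.59, SE 0.13, adjusted p = 0.01). Top2a (0.67, SE 0.20, adjusted p = 0.042) and Ccnd2, cyclin D2 (0.42, SE 0.13, adjusted p = 0.05), had adjusted p = 0.051 and 0.07 with the replicate number as a block, so that 1 member of the list rose with the block, and 7 rose after quantile normalization. Without each of 6 arrays, 2 of them Cre-, 1 member rose. Pdgfb, a growth factor of mesenchymal cells, rose by 0.60 (SE 0.11, adjusted p = 0.0019). Fgf1 fell by 0.67 (SE 0.15, adjusted p = 0.0086) and Egf, made by the thick limb, from 11.06, 10.91, 11.10 and 11.31 to 9.52, 9.16, 9.75 and 10.02 (-1.48, SE 0.16, adjusted p = 3.4e-05).

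Markers of several nephron segments fell. Of 22 proximal tubule markers 17 fell, with a median of -1.02 and all 22 below 0. Their mean level was 10.05 to 10.50 at 4 months and 8.85 to 9.71 at 7 months. Slc6a19, the neutral amino acid transporter of the brush border, fell from 9.48, 9.49, 9.22 and 9.75 to 8.29, 7.52, 8.02 and 7.70 (-1.60, SE 0.15, adjusted p = 1.5e-05). Gatm, the first enzyme of creatine synthesis, fell from 8.80, 8.56, 9.11 and 9.18 to 7.92, 6.97, 7.41 and 7.62 (-1.43, SE 0.21, adjusted p = 0.00039). Slc22a8, an organic anion transporter, fell by 1.27 (SE 0.22, adjusted p = 0.0015). The ages did not overlap for these 3 genes. Slc34a1, Lrp2, Cubn, Aqp1 and Slc5a2 were also among the members that fell.

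Of 14 intercalated cell markers 9 fell, with a median of -0.61, among them Slc26a4, pendrin, from 8.38, 8.43, 8.27 and 8.77 to 7.33, 6.80, 6.98 and 7.72 (-1.25, SE 0.18, adjusted p = 0.00031), Insrr, an alkali-sensing receptor (-1.02, SE 0.17, adjusted p = 0.0011), and Slc4a9, an anion exchanger (-0.90, SE 0.20, adjusted p = 0.0075). Thin and thick limb markers had 5 of 11 falling (median -0.43), with Kcnj1, the channel ROMK, at -0.67 (SE 0.15, adjusted p = 0.0075) and Cldn10 at -0.57 (SE 0.13, adjusted p = 0.0089) beside Egf. Distal convoluted tubule markers had 5 of 14 falling (median -0.35). Kl, klotho, fell from 10.37, 10.12, 10.14 and 10.46 to 9.59, 9.13, 8.97 and 9.55 (-0.96, SE 0.14, adjusted p = 0.00024), and Fxyd2, a subunit of the sodium pump, by 0.83 (SE 0.12, adjusted p = 0.00037). Among 12 principal cell markers 1 fell, Scnn1a, a sodium channel subunit (-0.64, SE 0.16, adjusted p = 0.015, or 0.05 without the second 7-month Cre+ replicate), with 0 falling without that replicate. The median of these markers was -0.37, with 11 below 0 and 9 lower in limma at an unadjusted p under 0.05. With the Y-linked mean as a covariate 4 of them fell. Without the third or the fourth 4-month or the second 7-month Cre+ replicate 3 distal convoluted tubule markers fell.

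Cells outside the tubule were followed with their own lists. None of 11 podocyte markers passed in limma, with 2 higher and 2 lower at an unadjusted p under 0.05 and 0 in the plain model, and Nphs1, nephrin, was at -0.37 (interval -0.66 to -0.07). Of 15 endothelial markers 4 fell, with a median of -0.18, among them Ehd3, an endothelial protein of glomeruli, from 8.02, 8.14, 8.40 and 8.20 to 6.90, 5.87, 7.13 and 7.25 (-1.40, SE 0.21, adjusted p = 0.00045), and Kdr, the VEGF receptor (-0.58, SE 0.14, adjusted p = 0.014). Without the third or the fourth 4-month or the second 7-month Cre+ replicate 2 of them fell. Adipocyte and adrenal cortex markers, which report tissue around the kidney, had 0 of 7 and 0 of 7 called in limma, 0 and 3 at an unadjusted p under 0.05 and 0 in the plain model. Slc4a1, the only measured member of the blood list and also a chloride-bicarbonate exchanger of intercalated cells, fell by 0.60 (SE 0.12, adjusted p = 0.0032).

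**Figure D3:**
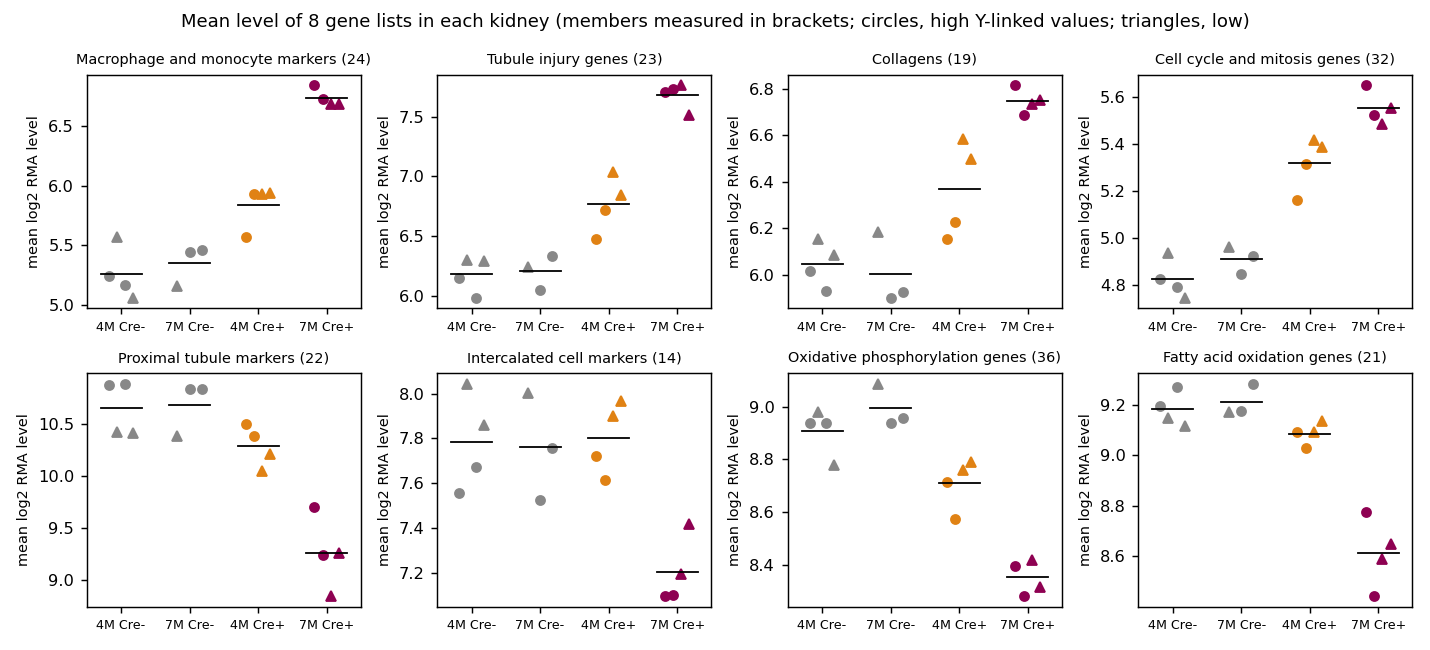
Mean log2 RMA level of the measured members of 8 gene lists in each kidney, by age and Cre, with circles for high and triangles for low Y-linked values and bars for group means. Macrophage markers reach 6.69 to 6.85 in 7-month Cre+ kidneys against 5.57 to 5.94 at 4 months, and proximal tubule markers fall to 8.85 to 9.71 from 10.05 to 10.50.

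Transcription factors of the tubule fell with the segment markers, 9 of 21 with a median of -0.28. Hnf4a, the nuclear receptor that maintains proximal tubule identity, was at 9.17, 9.0, 8.99 and 9.0 and then at 8.42, 8.30, 8.05 and 8.01 (-0.85, SE 0.10, adjusted p = 8.7e-05). Hnf4g, its paralog, fell by 0.92 (SE 0.19, adjusted p = 0.0051), and Foxi1, Esrrb, Maf, Irx3, Lhx1 and Esrrg were also among the members that fell. Without the fourth 4-month Cre+ replicate 5 members fell. The HNF1 motif, searched on both strands, was in 1.2% of promoters of falling genes (14 of 1164), in 0.149% of those of rising genes (1 of 673) and in 0.447% of all. The HNF4 motif CAAAGTCCA was in 1.12%, 0.594% and 0.541%. The shares of both motifs were not tested. Windows with the HNF1 motif in capitals are shown for F13b at chr1:139501622-139501691 and for G6pc, glucose-6-phosphatase, at chr11:101367466-101367534, both on the plus strand, 55 and 221 bases before the start.
F13b: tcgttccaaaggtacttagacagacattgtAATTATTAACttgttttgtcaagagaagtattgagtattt
G6pc: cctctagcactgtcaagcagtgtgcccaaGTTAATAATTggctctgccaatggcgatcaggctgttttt

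Mitochondrial genes fell by small amounts in many members. Of 17 genes of the tricarboxylic acid cycle 13 fell, with a median of -0.43 and all 17 below 0. Idh3g, a subunit of isocitrate dehydrogenase, was at 10.41, 10.41, 10.54 and 10.56 and then at 10.03, 9.76, 10.06 and 10.05 (-0.50, SE 0.10, adjusted p = 0.0028), Suclg1, a succinyl-CoA ligase subunit, fell by 0.55 (SE 0.11, adjusted p = 0.0044) and Pcx, pyruvate carboxylase, by 0.86 (SE 0.17, adjusted p = 0.0033). Of 36 oxidative phosphorylation genes 17 fell, with a median of -0.36. Sdhb, a subunit of complex II, fell from 8.74, 8.63, 8.71 and 8.83 to 8.03, 8.07, 8.29 and 8.15 (-0.59, SE 0.10, adjusted p = 0.0012), and Ndufa9, of complex I, by 0.53 (SE 0.10, adjusted p = 0.0018). Of 21 genes of fatty acid oxidation 15 fell, with a median of -0.51. Ppara, the nuclear receptor that controls them, fell from 7.50, 7.17, 7.50 and 7.22 to 6.76, 6.30, 6.57 and 6.42 (-0.83, SE 0.13, adjusted p = 0.00047), Ehhadh, a peroxisomal enzyme, by 0.81 (SE 0.15, adjusted p = 0.0019) and Acaa1b, a peroxisomal thiolase, by 0.77 (SE 0.14, adjusted p = 0.0015). After quantile normalization 8 genes of the cycle fell. Without the third or the fourth 4-month or the second 7-month Cre+ replicate 10, 9 or 9 oxidative phosphorylation genes fell.

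Among genes of sugar metabolism more fell than rose. G6pc, the last step of glucose release, fell from 11.19, 10.95, 10.98 and 11.08 to 9.87, 9.20, 9.99 and 10.40 (-1.18, SE 0.19, adjusted p = 0.0007), and Fbp1, fructose bisphosphatase, from 10.90, 10.69, 10.96 and 11.09 to 10.15, 9.67, 9.82 and 9.98 (-1.0, SE 0.11, adjusted p = 4.3e-05). Hk2, a hexokinase, was at 6.31, 6.42, 6.63 and 6.27 and then at 6.77, 7.02, 8.36 and 7.53 (1.01, SE 0.25, adjusted p = 0.016, or 0.059 in the plain model). The third and the fourth 7-month kidneys, those of low Y-linked values, were the highest for Hk2. Of 18 genes of glycolysis and glucose synthesis 1 rose, Hk2, and 5 fell, with a median of -0.14 and 13 below 0. Gys2, glycogen synthase of liver type, outside that list, fell by 1.58 (SE 0.23, adjusted p = 0.00028).

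Amino acid breakdown and solute transport held the largest falls. Of 23 genes of amino acid breakdown and creatine 15 fell, with a median of -0.93. Hpd, an enzyme of tyrosine breakdown, fell from 9.32, 9.12, 10.08 and 10.07 to 6.56, 6.68, 8.60 and 7.99, 4.56-fold lower (log2 change -2.19, SE 0.39, adjusted p = 0.0017). The first and the second kidneys of each age, those of high Y-linked values, were the lower for Hpd, and the ages did not overlap. Upb1, an enzyme of pyrimidine breakdown, fell by 1.33 (SE 0.15, adjusted p = 6.1e-05). Cndp1, the carnosine-cleaving peptidase, fell by 1.70 (SE 0.26, adjusted p = 0.00058) and Acsm1, a medium-chain acyl-CoA synthetase, by 1.64 (SE 0.21, adjusted p = 0.00014). Papss2, which makes the sulfate donor, fell from 11.02, 10.81, 11.21 and 11.20 to 9.70, 8.83, 9.60 and 9.64 (-1.62, SE 0.21, adjusted p = 0.00011). Of 22 organic ion transporters 13 fell, with a median of -0.80, and 8 without the fourth 4-month or the second or the third 7-month Cre+ replicate. Slc22a26, of the organic anion transporter family but not a member of that list, was at 6.85, 6.79, 7.58 and 7.96 and then at 5.34, 5.40, 3.13 and 6.03, 5-fold lower (-2.32, SE 0.44, adjusted p = 0.0025), with the third 7-month kidney near the lowest levels of the arrays. Slco1a6, an anion transporter, fell by 1.0 (SE 0.13, adjusted p = 0.00016).

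Cytochrome P450 genes varied between kidneys, and 5 of 17 fell, with a median of -0.69. Cyp2d12 was at 8.66, 8.72, 7.55 and 8.40 and then at 7.06, 6.09, 5.95 and 6.13 (-2.03, SE 0.44, adjusted p = 0.0072), and its Cre- means were 8.42 and 9.51. With the Y-linked mean as a covariate 10 members fell, and 3 fell without the third or the fourth 4-month Cre+ replicate. Among secreted and surface proteins, Dnase1, the nuclease of urine, fell from 9.59, 9.73, 9.58 and 9.82 to 8.16, 8.10, 8.17 and 7.39 (-1.73, SE 0.20, adjusted p = 6.3e-05). Clec2h, a lectin-like receptor, fell by 1.68 (SE 0.18, adjusted p = 3.1e-05), Tldc2 by 1.64 (SE 0.16, adjusted p = 2.2e-05) and Sectm1b by 1.47 (SE 0.20, adjusted p = 0.00018). Car4, the membrane-bound carbonic anhydrase, fell by 1.24 (SE 0.25, adjusted p = 0.0041).

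Hormone and oxidant handling showed members of both directions. Among 13 genes of the renin, phosphate and calcium hormones 2 rose and 5 fell. Agt, angiotensinogen, rose from 8.47, 8.90, 8.88 and 8.47 to 9.42, 9.22, 9.87 and 9.27 (0.76, SE 0.18, adjusted p = 0.011), while Agtr1a, the angiotensin receptor, fell from 7.27, 7.33, 7.40 and 7.74 to 6.48, 6.06, 6.50 and 6.54 (-1.04, SE 0.12, adjusted p = 6.9e-05). Slc34a2, a phosphate transporter of lung and gut, rose by 1.25 (SE 0.14, adjusted p = 4.1e-05), whereas Pth1r, the parathyroid hormone receptor, fell by 0.78 (SE 0.14, adjusted p = 0.0013). Of 18 NRF2 and glutathione genes 1 rose and 4 fell, with Gpx6 (-0.98, SE 0.19, adjusted p = 0.003) and Gpx3, the plasma glutathione peroxidase (-0.52, SE 0.10, adjusted p = 0.0022), among the falls. The rise in that list was lost without each of 10 single arrays. Abca1, a cholesterol exporter, rose by 0.61 (SE 0.12, adjusted p = 0.0044), and Cyp51, a step of cholesterol synthesis, fell by 0.86 (SE 0.17, adjusted p = 0.0037), each the only call in its direction among 17 genes. Over all genes 4.12% rose and 6.71% fell. The shares of the cholesterol list (5.9% in each direction) and of rises in the NRF2 list (5.6%) are near these and say little about the lists. In 13 of the rising lists and 13 of the falling lists described here limma called 0 members in the other direction. At an unadjusted p under 0.05 those lists held 7 and 1 such members, and the plain model called 2 and 0. The 13 and 13 lists were picked with their calls known, so the 0 was fixed by the choice. Left out were lists with mostly rises and a called fall, such as the fibrinogen, complement, TGF-beta and metalloproteinase lists. The V-ATPase and glycolysis lists, with mostly falls and a called rise, were also left out.

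**Figure D4:**
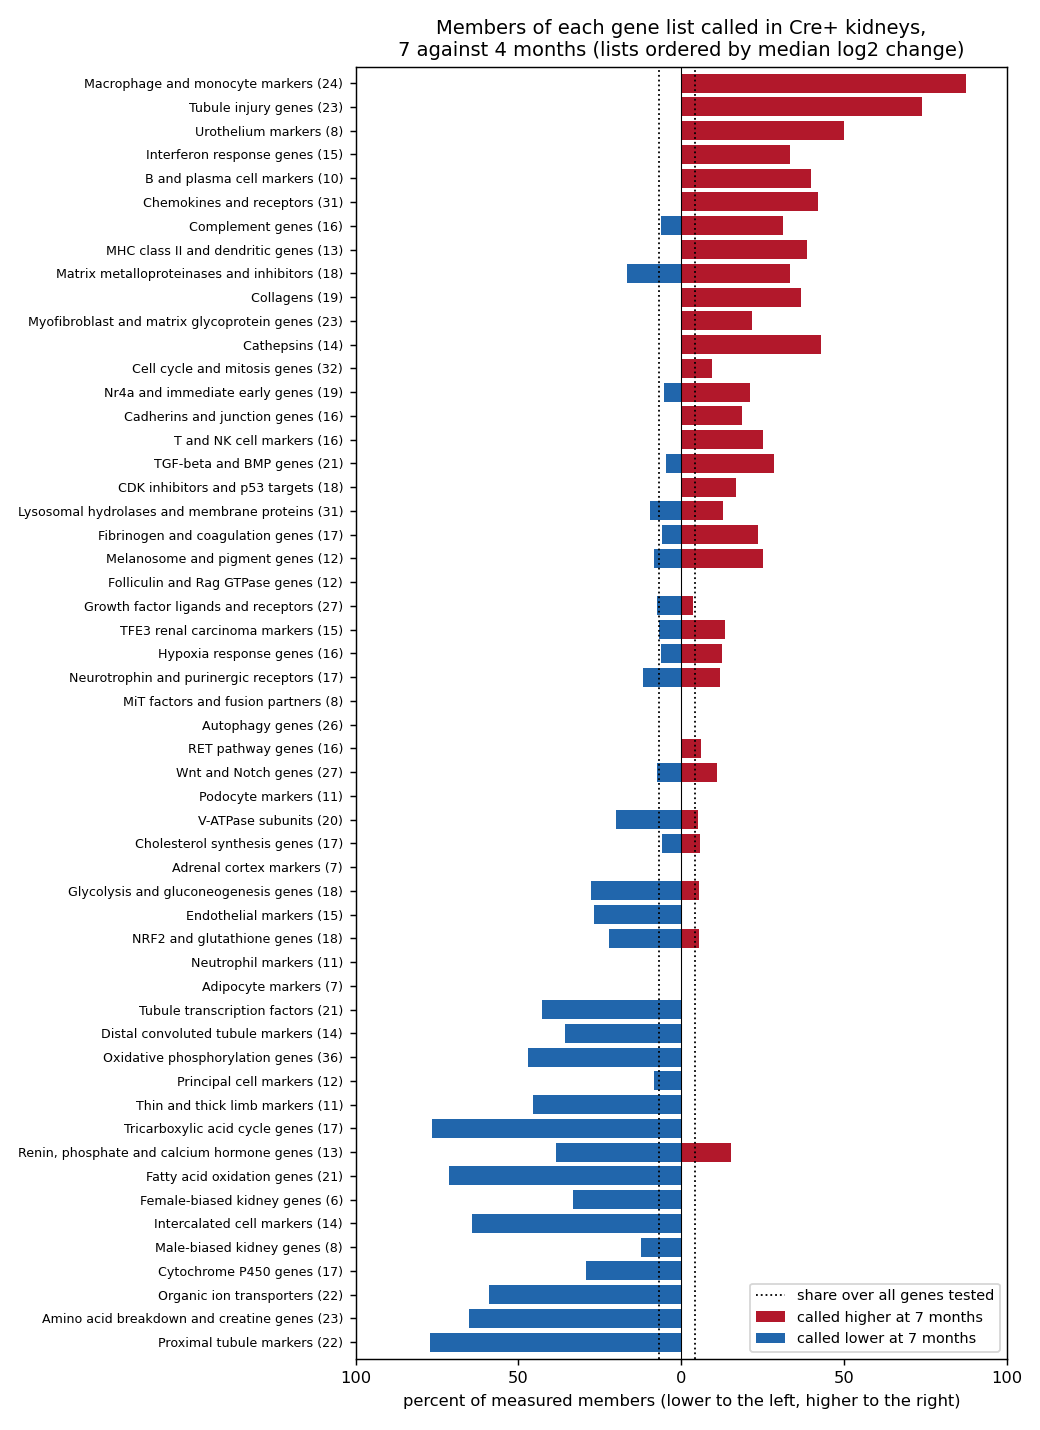
Percent of measured members of each gene list (number in brackets) called higher (red, to the right) or lower (blue, to the left) at 7 than at 4 months in Cre+ kidneys, ordered by median log2 change, with dotted lines at the shares over all genes, 4.12% and 6.71%. Macrophage markers (21 of 24) and tubule injury genes (17 of 23) reach farthest to the right, and proximal tubule markers (17 of 22) and genes of the tricarboxylic acid cycle (13 of 17) are among those farthest to the left.

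The age change of Cre+ kidneys was then set against that of Cre- kidneys, which asks whether time alone moved a gene as much. The Cre- groups were not balanced for Y-linked values, with 2 high and 2 low arrays at 4 months and 2 high and 1 low at 7 months. The median Cre- change was 0.69 for Y-linked and 0.90 for male-biased kidney genes, so that time and this shift cannot be told apart in the Cre- change as deposited. The difference of the changes passed for 475 genes (2.14%), 213 in the upward (0.96%) and 262 in the downward direction (1.18%), and 468 of them were also called in the Cre+ kidneys. Both tests contain the Cre+ change on the same arrays, so this overlap is favoured in advance and is no independent support. Gabrp differed by 2.65 (adjusted p = 0.00046), Adgrg2 by 2.53 (adjusted p = 0.00046), Hpse by 2.51 (adjusted p = 0.00098), Vcam1 by 2.30 (adjusted p = 0.0017) and Fgg by 2.05 (adjusted p = 0.0046). In the other direction, Dnase1 differed by -1.85 (adjusted p = 0.0049), F13b by -1.72 (adjusted p = 0.0037), Egf by -1.45 (adjusted p = 0.0049) and Hnf4a by -0.86 (adjusted p = 0.0082). For Lcn2 (1.77, adjusted p = 0.07), Hpd (-2.09, adjusted p = 0.072) and Havcr1 (1.75, adjusted p = 0.12) the difference did not pass. With the Y-linked mean as a covariate the downward count was 429, and Cyp2d12 differed by -2.97 (adjusted p = 0.0013) against -3.12 (adjusted p = 0.019) without it. Of the 22 proximal tubule markers 10 passed in the downward direction, and of the 24 macrophage markers 7 passed in the upward. Without the second 4-month Cre-, the first 4-month Cre+ or the second 7-month Cre- replicate the upward count was 121, 128 or 108, and without 8 of the arrays in turn the downward count was 117 to 163.

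The same interval was finally examined separately in the arrays with high and in those with low Y-linked values, 2 against 2 in each. The genes called in the Cre+ comparison were chosen on these same arrays, so that a shared sign in both kinds is not independent of the call. In the test of the difference between the kinds limma called 0 genes, with 1082 (4.88%) at an unadjusted p under 0.05 and 0 in the plain model. Havcr1 rose by 2.45 in the arrays of high (SE 0.28, adjusted p = 0.00034) and was at 0.84 in those of low values (SE 0.28, adjusted p = 0.096), and the difference had an unadjusted p of 0.001 and an adjusted p of 0.85. Grem1 rose by 2.00 and 0.70 and Postn was at 2.29 and 0.90, with adjusted p = 0.64 and 0.85 for the difference. Interferon response genes had medians of 0.95 in arrays of high and 0.22 in arrays of low values, injury genes 1.06 and 0.66, and proximal tubule markers -0.93 and -1.03.

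**Figure D5:**
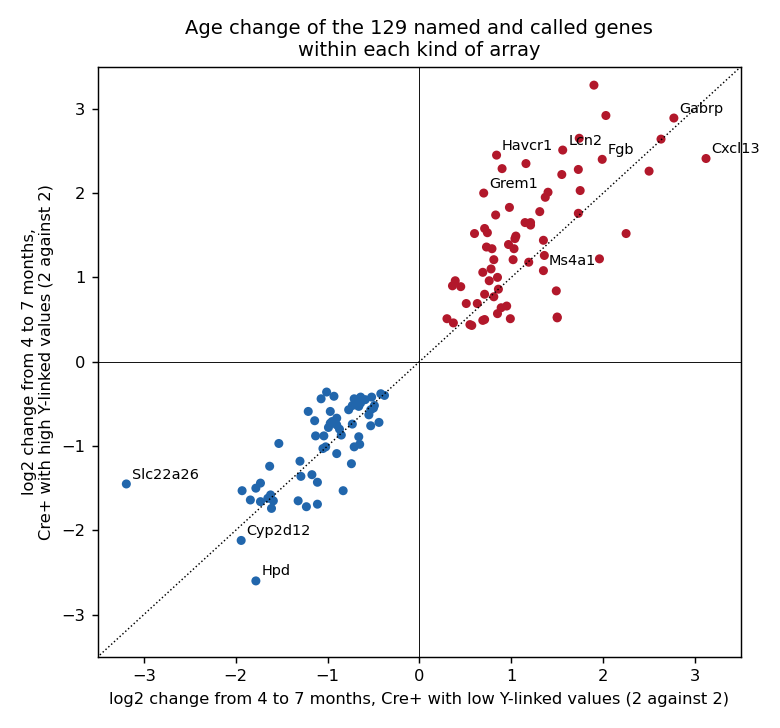
Log2 change from 4 to 7 months within low-Y (x axis) and high-Y (y axis) Cre+ arrays, 2 against 2 arrays each, for genes named in the text and called in the Cre+ comparison; the dotted line marks equal change. The plotted genes were called from these same arrays, which favours a shared sign on the axes. Havcr1 and Grem1 lie above the line and Slc22a26 far to the left of the others.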

How the data were processed

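Total RNA of 15 kidneys was hybridised to Affymetrix Mouse Gene 2.0 ST arrays. The authors deposited log2 values, made with RMA in Partek 6.6 per the submitters' processing notes. The table held 41345 entries, of which 23521 named 1 gene symbol, 1814 several and 16010 none, and 23328 of the named entries matched RefSeq genes. The entry of highest mean over all arrays stood for each of 22180 genes (1082 had several entries). Groups came from the labels. No filter or further normalization was used. Precision is limited by how many arrays each group has. The labels do not say whether kidneys of a group shared a litter, and p-values measure the spread between these samples.

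Group means were fitted over all 15 arrays with limma 3.58.1 in R 4.3.3 and tested by moderated statistics with Benjamini-Hochberg adjustment over all genes, at 0.05. Contrasts were the age change in Cre+ and in Cre- kidneys, their difference, and the Cre+ change by kind of Y-linked value. Intervals are 95%. The procedure was tested on simulated data. Tables and figures were made with Python 3.11.15, pandas 2.3.3, numpy 2.4.6, scipy 1.17.1 and matplotlib 3.10.9. Motifs were searched in RefSeq promoters (GRCm38.p6), and their shares were not tested. Motifs other than the E-box and its longer form were added to the plan. The gene lists, the genes compared and the rule for naming genes were chosen with earlier results of these data known. That rule took anchor genes, the 15 largest non-overlapping changes in each direction, up to 3 members per list and direction, 8 per direction of the difference from Cre-, 5 of the difference between kinds and 3 of the Cre- change, without predicted genes, olfactory and vomeronasal receptors, small RNAs or immune receptor segments.

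Replicate numbers are shared between the ages. Deviations from the group means correlated at 0.17, 0.22, 0.30 and 0.28 in same-numbered Cre+ arrays, all over 0.1, so that a fit with the number as a block was made. Pairs of different number but the same kind of Y-linked value correlated at 0.18 to 0.37. Alternatives were quantile normalization, median centring, a filter on dim genes, trend and robust variance, a plain linear model, array weights, the replicate block, a Y-linked covariate, other choices of entries and of arrays in the fit, leaving out each array, and fits within each kind.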

Additional observations from a re-analysis of the deposited data

Results flagged for a closer look

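In 76 of 143 genes named in the text the age change differed between Cre+ and Cre- kidneys by limma's test of the difference, here given as the Cre+ minus the Cre- change in log2. Over all genes the share was 2.14%. The naming rule took genes of large Cre+ change and of large called difference, so a high count among named genes follows from the choice. Among surface, secreted and coagulation genes these were Gpnmb (1.45), Cd68 (1.27), Gabrp (2.65), Adgrg2 (2.53), Hpse (2.51), Fgg (2.05), Fgb (2.31), Fga (1.34), Serpina3n (1.58), Vcam1 (2.3), Cd44 (2.0), Eif2c5 (1.83), Slc34a2 (1.28), Abca1 (0.87), Atf3 (1.07), Klf6 (0.88), Cldn4 (1.57), Cldn1 (1.15) and Upk1b (1.62). Among immune genes they were Cxcl13 (2.18), Ctss (1.88), Ms4a7 (1.43), Clec7a (1.63), Cd14 (1.57), Cd3g (1.42), Cd3e (1.35), Cd4 (0.93), Ms4a1 (1.45), Cd79a (1.18), H2-Ab1 (0.85), Ccl3 (1.1), C4b (1.52), C3ar1 (1.63), C1qb (1.14) and Cfb (-0.78). Among matrix genes they were Mmp7 (2.38), Mmp14 (1.49), Mmp12 (1.09), Timp3 (-0.6), Col12a1 (1.82), Col3a1 (1.19), Thbs2 (1.52), Ltbp2 (1.46), Grem1 (1.33) and Bmp7 (-0.68).

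Among genes of transport and the nephron the differences were those of Slc22a26 (-2.58), Slc6a19 (-1.24), Slco1a6 (-1.13), Slc26a4 (-1.17), Egf (-1.45), Kl (-1.0), Fxyd2 (-0.95), Hnf4a (-0.86), Car4 (-1.67), Agtr1a (-0.89) and Pth1r (-0.9). Among metabolic and other genes they were those of Cyp2d12 (-3.12), F13b (-1.72), Dnase1 (-1.85), Cndp1 (-1.55), Clec2h (-1.35), Acsm1 (-1.65), Tldc2 (-1.22), Papss2 (-1.48), Gys2 (-1.57), Sectm1b (-1.76), Lipa (-0.84), Acp5 (-0.72), Gatm (-1.36), Sdhb (-0.6), Ndufa9 (-0.65), Pcx (-1.01), Ehhadh (-0.98), G6pc (-1.2), Fbp1 (-0.91) and Upb1 (-1.21). With the replicate number as a block 8 of the 76 did not pass, Cfb, Clec7a, Cndp1, Col3a1, Fgb, Grem1, Pcx and Upk1b. Under every other setting of the whole array set and without each array 31 passed. That count leaves out the fits within each kind of Y-linked value, where far fewer genes passed.

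In 21 of 286 groups of 4 arrays (7.3%) 1 kidney stood far from the others of its group, where chance gives about 1 in 20. At 4 months the first Cre+ kidney was low for Cd44 (4.59), Cd3g (4.48), Ms4a1 (3.46) and Ccl9 (5.67) and apart for Hnf4a (9.17) and Pcx (8.52). The second was apart for Fxyd2 (8.99) and Scnn1a (8.84), the third for Gpx6 (8.26) and the fourth for Gys2 (7.3) and Kdr (8.93). At 7 months the first was apart for Cyp2d12 (7.06) and Ccl3 (5.71), the second for Papss2 (8.83), Idh3g (9.76) and Agtr1a (6.06), the third for Serpina3n (7.26) and H2-Ab1 (11.57), and the fourth for Fgg (8.86), Dnase1 (7.39) and Insrr (5.69). Among the 17824 table entries without exactly 1 gene symbol, which no comparison above used, 352 were called higher and 222 lower at 7 months in Cre+ kidneys.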

How the results depend on the processing

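Of 129 named genes called in Cre+ kidneys 115 kept their call under every other setting of the whole array set and without each array, and no direction reversed. Within 2 against 2 arrays of 1 kind 50 lost it. The replicate block gave 909 rises and 1445 falls, and 185 and 233 for the difference from Cre-. It changed no other call of a named gene in the Cre+ comparison than those of Ccnd2, Mlana, Mmp13 and Top2a, and Gm7609 was not called with it. Counts moved by over 1.5 times as follows. Within arrays of high Y-linked values 579 genes rose and 556 fell, and within those of low values 369 rose, 801 fell and 194 fell at least 2-fold. Over all table entries 335 rose at least 2-fold. The Cre- call was 0 in the plain model, with the replicate block, with only the compared groups, over all entries and within either kind. The upward difference from Cre- was 359 after quantile normalization, 321 after centring, 90 in the plain model, 124 over all entries, and 44 and 34 within arrays of high and low values. The downward difference was 137 in the plain model, 429 with the Y-linked covariate, 97 over all entries, and 25 and 54 within the kinds. Leaving out 1 array gave 604 to 949 rises, 130 to 197 rises of at least 2-fold, 956 to 1523 falls, 95 to 163 falls of at least 2-fold, 0 to 1 Cre- calls, 108 to 228 upward and 117 to 288 downward differences, and 0 to 3 upward and 0 to 1 downward calls between the kinds. The cause of these shifts was not tested. Without detection calls, signal over background is unknown for dim genes.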
